A study of Mus musculus with 4 samples.

Results

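The AKT kinases and the enzymes that act on them or on their lipid activator were examined in 32Dcl3-Abl1ko cells. The 8 genes were taken by name from the 23756 genes of the deposited table: the kinases Akt1, Akt2 and Pdpk1, the inositol lipid phosphatases Inpp5d, Inppl1 and Inpp4a, and the protein phosphatases Phlpp1 and Phlpp2. Each name matched 1 row, and all 8 passed the filter on low counts. 32Dcl3 is a murine hematopoietic line that needs interleukin-3 (IL-3) to grow, and in the cells used here Abl1, which encodes a tyrosine kinase, had been targeted by CRISPR/Cas9 from a lentiviral vector, so both groups share the labelled Abl1 knockout and the vector. Total RNA was sequenced in 2 libraries of Abl1ko/IL3+ cells, cultured with IL-3, and 2 of Abl1ko/IL3- cells, cultured without it, IL3+ and IL3- for short. The knockout cells come from selected single clones, and the Abl1ko/IL3- cells from populations that had outlived a gradual withdrawal of IL-3, so selection and the absence of IL-3 cannot be told apart in this comparison. The series description calls the duplicates biological, and the labels do not say from which clone each library came. RNA counts do not measure phosphorylation, so they hold no value for AKT activity.

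AKT is activated at the membrane. Class I PI3K adds a phosphate to a membrane inositol lipid, AKT and PDPK1 bind the resulting trisphosphate lipid through their pleckstrin homology domains, and PDPK1 then phosphorylates AKT in its activation loop. SHIP1, encoded by Inpp5d, and SHIP2, encoded by Inppl1, remove the 5-phosphate from that lipid, and the type I 4-phosphatase encoded by Inpp4a acts on the bisphosphate product. PHLPP1 and PHLPP2 dephosphorylate AKT itself at its hydrophobic motif. In myeloid cells SHIP1 is known as a brake on signaling by the IL-3 receptor and related receptors.

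The libraries held 48953174 to 60382588 counts. Fold changes compare Abl1ko/IL3- with Abl1ko/IL3+ on the log2 scale from edgeR, levels are given as FPKM, which is scaled for gene length and depth, and comparisons between libraries as CPM, counts scaled to a common library total with edgeR's TMM factors. Abl1 mRNA was counted in every library (1.7 to 3.1 FPKM), and gene counts do not show whether an edit is present. The paper reports indels in the cells that received guide RNAs, and less ABL1 protein by Western blot. The labels do not tie those assays to these libraries. The label for the cell type reads pre-B-cell. Of 15 pre-B and B cell markers, 9 were in the table and together reached 12.5 to 15.4 FPKM. Cd79b had 6.24 to 10.9 FPKM of this. The 15 myeloid progenitor markers summed to 808 to 1460 FPKM, with Mpo the most abundant on average, and Kit had at most 4 counts. In 2 of the summed marker lists the Abl1ko/IL3+ replicates lay at opposite ends, with both Abl1ko/IL3- libraries between them. Mast cell and basophil markers summed to 1010 FPKM there and to 153, 301 and 272 FPKM in Abl1ko/IL3+ replicate 2 and Abl1ko/IL3- replicates 1 and 2, with Prss34, Cpa3 and Fcer1a highest there but Mcpt8 lowest, and erythroid and megakaryocyte markers to 492 against 12200, 5750 and 3300 FPKM. Markers of maturing granulocytes summed to 1070 and 387 FPKM in IL3+ and to 966 and 4530 FPKM in IL3- libraries, led by Ngp. Of the 13 tested, 9 had a fold change above 0 and 4 below, with a median log2 fold change of 1.87. Higher in both IL3- libraries and called by DESeq2 were 5 (S100a8, S100a9, Ltf, Camp and Ly6g). Padi4 was lower in both, at 13.8 and 21.8 FPKM against 41.3 and 24.2 in IL3+ libraries. In edgeR 0 passed the adjusted threshold. S100a8 had 1.56 and 0.428 FPKM in IL3+ and 87.7 and 165 in IL3- libraries. T cell markers summed to at most 2.78 FPKM, with 2 of 4 tested genes higher without IL-3 at an unadjusted p-value under 0.05 in edgeR. Stromal markers summed to 32.0 to 94.4 FPKM, nearly all of it Vim (31.5 to 94.0 FPKM). Cycling genes summed to 273 and 507 FPKM in IL3+ and to 370 and 352 FPKM in IL3- libraries. Mitochondrially encoded genes took 2.55% and 1.28% of the counts with IL-3 and 4.01% and 3.31% without it. The part of these differences in the values below was not tested.

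Per unit of length, Akt1 was the most abundant of the 8 transcripts and Inpp4a the least. Akt1 averaged 37.6 FPKM over the 4 libraries and exceeded Inpp5d, at 17.5 FPKM, in all 4. Inpp5d and Akt2, at 12.5 FPKM, overlapped in their ranges and kept their order in 3 of 4 libraries. Pdpk1 averaged 3.03 FPKM, below every value of Akt2 and above every value of Phlpp1. Phlpp1 (1.38 FPKM), Phlpp2 (0.774 FPKM) and Inppl1 (0.488 FPKM) had overlapping ranges, although this order held within each of the 4 libraries. Inpp4a averaged 0.182 FPKM and exceeded Inppl1 in 1 library only, Abl1ko/IL3- replicate 2.

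**Figure D1:**
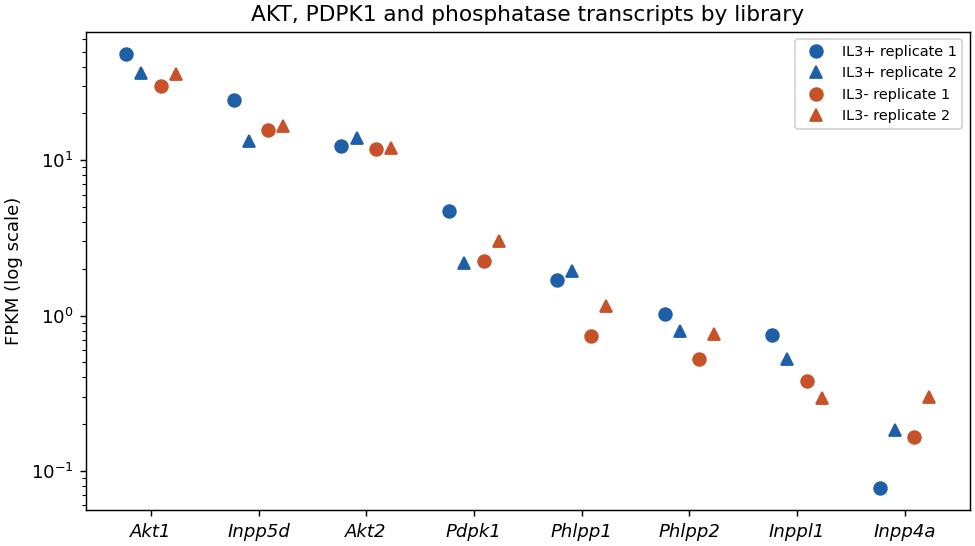
FPKM of the 8 genes in each of the 4 libraries, on a logarithmic vertical axis, with blue symbols for Abl1ko/IL3+, orange for Abl1ko/IL3-, circles for replicate 1 and triangles for replicate 2. Akt1 lies highest, between 30.2 and 48.3 FPKM, and Inpp4a lowest, between 0.0774 and 0.3 FPKM.

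Between Abl1ko/IL3- and Abl1ko/IL3+ cells, 4 of the 8 genes, Akt1, Inppl1, Phlpp1 and Phlpp2, had lower CPM in both libraries without IL-3 than in both libraries with it. Among all 16535 genes tested this held for 17.9%, and the opposite order for 19.4%. None of the 8 genes had the opposite order. The summed myeloid progenitor markers were lower in both libraries without IL-3, at 917 and 808 FPKM against 1460 and 1150. Mpo alone had 227 and 135 FPKM against 528 and 346. Of the 14 tested markers, 2 were lower without overlap, a smaller share than the 17.9% of all genes. Of 13 tested maturing granulocyte markers, 5 were higher without overlap and 1 was lower. The part of either in these 4 genes was not tested. In bulk RNA, fewer cells of a type and less RNA per cell cannot be told apart. In TMM-scaled log2 CPM, the same 4 genes were those whose mean difference exceeded the gap between replicates in each group. This rests on the same normalized values as the order above, so it is not separate evidence. It was not computed over all genes or under another scaling. No gene of the 8 passed the test: 0 had an adjusted p-value under 0.05 in the quasi-likelihood test of edgeR after Benjamini-Hochberg adjustment, as had 0.0% of all genes (lowest adjusted p-value 0.335), and 0 had an unadjusted one, against 5.91% of all genes. DESeq2's Wald test called 1.64% of all genes and 0 of the 8, with 0 at an unadjusted p-value under 0.05, and limma on log2(FPKM + 1) called 0 genes overall. The median log2 fold change of the 8 was -0.37, with 7 below 0 and 1 above, where the median of all genes tested was -0.027 and 51.9% were below 0. Abl1ko/IL3+ replicate 1 held the highest CPM of 5 of the 8 genes and of 31.8% of all genes.

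**Figure D2:**
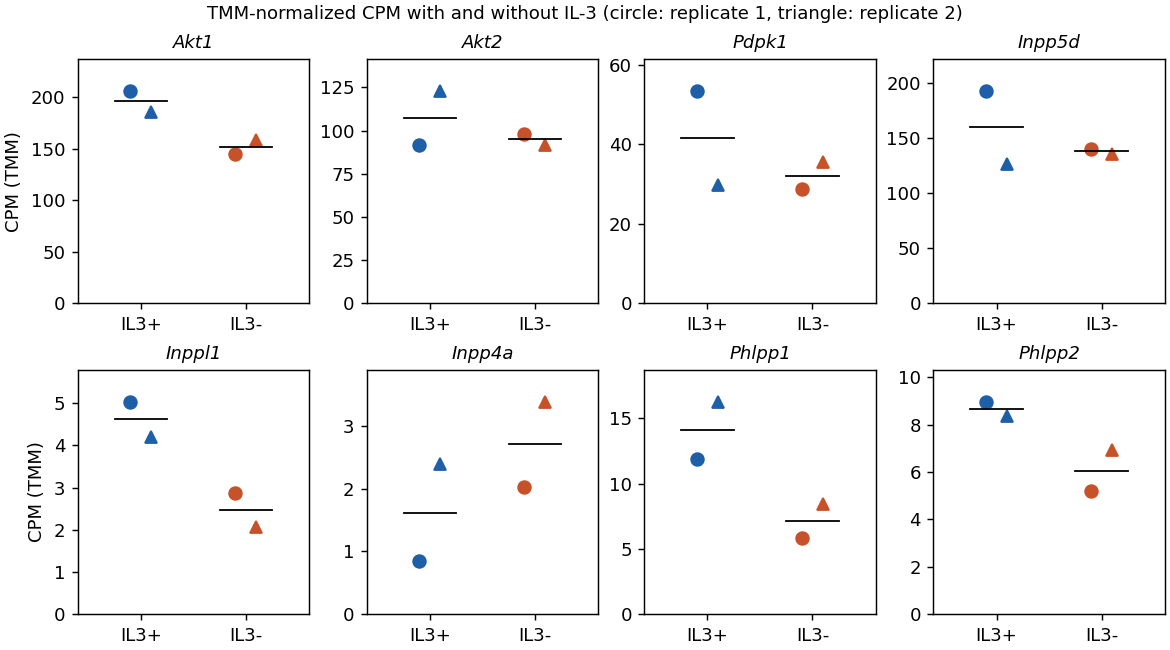
TMM-normalized CPM of each gene, from 0, in cells with IL-3 (blue) and without it (orange), with circles for replicate 1, triangles for replicate 2 and a black line at each group's mean. The groups are separate for Akt1, Inppl1, Phlpp1 and Phlpp2 and overlap for Akt2, Pdpk1, Inpp5d and Inpp4a.

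Of the AKT kinases, Akt1 (chromosome 12, 112653821 to 112674884 in GRCm38, minus strand) had 206 and 186 CPM in IL3+ and 145 and 158 CPM in IL3- libraries. Both libraries without IL-3 were lower, and the individual ratios between a library without and a library with IL-3 ran from 0.703 to 0.853. Under other scalings the margin was smaller. Scaled by library size alone, CPM was 167 in Abl1ko/IL3+ replicate 2 and 166 in Abl1ko/IL3- replicate 2. The deposited FPKM of the same libraries were 36.3 and 35.7. The log2 fold change was -0.37 (standard error 0.30, 95% interval -1.15 to 0.41, edgeR quasi-likelihood adjusted p = 0.92), and with any 1 library left out it stayed between -0.44 and -0.28. Akt1 is the most widely expressed AKT isoform, and the interval still allows a level from 0.452 to 1.32 times that with IL-3.

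Akt2, the isoform best known from insulin signaling (chromosome 7, 27591552 to 27640826, plus strand), had 91.9 and 123 CPM in IL3+ and 98.2 and 91.8 CPM in IL3- libraries. The groups overlapped in TMM-scaled CPM, but not in the deposited FPKM, where the libraries with IL-3 had 12.4 and 13.8 and those without had 11.8 and 11.9, nor in CPM scaled by library size alone. Its log2 fold change was -0.18 (standard error 0.32, 95% interval -1.01 to 0.65, edgeR quasi-likelihood adjusted p = 0.975), and without Abl1ko/IL3+ replicate 2 its direction turned, to 0.05.

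Akt1 made up 79.6% and 72.4% of the summed FPKM of Akt1 and Akt2 with IL-3, and 71.9% and 75.0% without it. The Abl1ko/IL3- mean of 73.5% ± 2.17 (SD, n = 2) lay within the range of the Abl1ko/IL3+ libraries, which averaged 76.0% ± 5.1 (SD, n = 2; exact permutation test, two-sided, p = 0.667). With 2 libraries against 2 this test cannot give a p-value below 0.333. Without Abl1ko/IL3+ replicate 1 the difference turned from -2.52 to 1.09 percentage points.

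Pdpk1, the kinase upstream of AKT and of other kinases of its class (chromosome 17, 24073680 to 24141595, minus strand), had 53.4 and 29.7 CPM in IL3+ and 28.7 and 35.5 CPM in IL3- libraries. Abl1ko/IL3+ replicate 1 was high and the other 3 libraries lay close together. The log2 fold change was -0.37 (standard error 0.42, 95% interval -1.45 to 0.71, edgeR quasi-likelihood adjusted p = 0.947). It was 0.13 without Abl1ko/IL3+ replicate 1, the library in which the summed mast cell and basophil markers were highest, and -0.73 without replicate 2.

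The same library was set apart for Inpp5d (chromosome 1, 87620312 to 87720507, plus strand), the hematopoietic SHIP gene, which had 193 and 127 CPM in IL3+ and 140 and 136 CPM in IL3- libraries. The 2 libraries without IL-3 differed from each other by 0.04 on the log2 scale, and those with IL-3 by 0.61. Its log2 fold change was -0.21 (standard error 0.35, 95% interval -1.12 to 0.69, edgeR quasi-likelihood adjusted p = 0.973). It was 0.14 without Abl1ko/IL3+ replicate 1 and -0.48 without Abl1ko/IL3+ replicate 2, so the direction rested on which control library was kept.

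Inppl1, the SHIP gene expressed in many tissues (chromosome 7, 101822632 to 101838229, minus strand), was counted far less often, with 325 and 229 counts in IL3+ and 138 and 120 counts in IL3- libraries. In CPM these were 5.04 and 4.21 against 2.88 and 2.07, so both libraries without IL-3 were lower. Its log2 fold change was -0.90 (standard error 0.51, 95% interval -2.21 to 0.41, edgeR quasi-likelihood adjusted p = 0.874), and it stayed between -1.16 and -0.68 with any 1 library left out. Exons of Inppl1 overlap those of Gm10602 and Phox2a on the other strand. Whether counting used strand is not given in the sources used here, and Gm10602 had 70 and 8 counts in IL3+ and 17 and 13 in IL3- libraries, so some reads of Inppl1 are uncertain.

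Inpp5d supplied nearly all SHIP transcript. Its level per length was 25.5 to 56.3 times that of Inppl1. It made up 97.0% and 96.2% of the pair's FPKM in IL3+ libraries and 97.6% and 98.3% in IL3- libraries. Both values without IL-3 were above both values with it (difference 1.33 percentage points, exact permutation test, two-sided, p = 0.333, the smallest that 2 against 2 allows).

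Inpp4a (chromosome 1, 37299865 to 37410736, plus strand) was the only gene of the 8 with a fold change above 0. It had 54 and 130 counts in IL3+, 97 and 197 in IL3- libraries, and 0.838, 2.39, 2.03 and 3.39 CPM in the same order. The groups overlapped, and the libraries of each group differed from one another by 1.47 and 0.73 on the log2 scale. Its log2 fold change was 0.75 (standard error 0.74, 95% interval -1.16 to 2.66, edgeR quasi-likelihood adjusted p = 0.936). It ranged from 0.20 without Abl1ko/IL3+ replicate 1 to 1.70 without Abl1ko/IL3+ replicate 2. Counting error alone leaves the 54 counts between 40.6 and 70.5 (exact Poisson 95% interval).

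**Figure D3:**
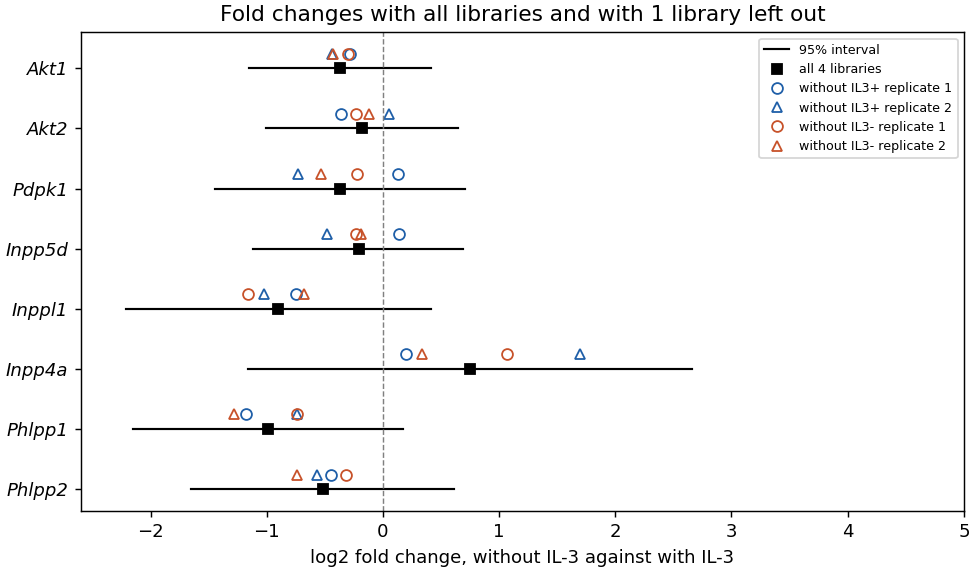
Log2 fold change of each gene, without IL-3 against with IL-3, with black squares for all 4 libraries, lines for the 95% interval from edgeR and open symbols for fits without the library named in the key. Every interval includes 0, and the open symbols of Akt2, Pdpk1 and Inpp5d lie on both sides of 0.

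The PHLPP phosphatases were both lower in each library without IL-3. Phlpp1 (chromosome 1, 106171752 to 106394250, plus strand) had 11.9 and 16.3 CPM in IL3+ and 5.81 and 8.42 CPM in IL3- libraries, which rest on 768 and 888 against 278 and 489 counts. It had the lowest p-value of the 8 genes, with a log2 fold change of -0.99 (standard error 0.45, 95% interval -2.15 to 0.17, unadjusted p = 0.0801, edgeR quasi-likelihood adjusted p = 0.855). It ranked 1538 of 16535 genes by p-value. Without Abl1ko/IL3+ replicate 1 the unadjusted p was 0.043 and the adjusted p 0.325 in edgeR, and over all 13 alternatives its adjusted p ran from 0.325 to 1.0. With any 1 library left out the log2 fold change stayed between -1.28 and -0.74.

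Phlpp2 (chromosome 8, 109868542 to 109944670, plus strand) had 8.98 and 8.37 CPM in IL3+ and 5.18 and 6.93 CPM in IL3- libraries. The replicates with IL-3 differed by 0.10 on the log2 scale and those without by 0.42, and the groups did not overlap. The log2 fold change was -0.52 (standard error 0.44, 95% interval -1.65 to 0.61, edgeR quasi-likelihood adjusted p = 0.924). It was -0.32 without Abl1ko/IL3- replicate 1 and -0.74 without Abl1ko/IL3- replicate 2.

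Within the PHLPP pair, Phlpp1 held 62.4% and 70.9% of the summed FPKM with IL-3 and 58.3% and 60.3% without it. Both values without IL-3 were below both with it (difference -7.34 percentage points, exact permutation test, two-sided, p = 0.333, the smallest possible). The difference was -3.06 without Abl1ko/IL3+ replicate 2 and -11.6 without Abl1ko/IL3+ replicate 1. Phlpp1 was nevertheless above Phlpp2 in all 4 libraries, 1.4 to 2.44 times per length.

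**Figure D4:**
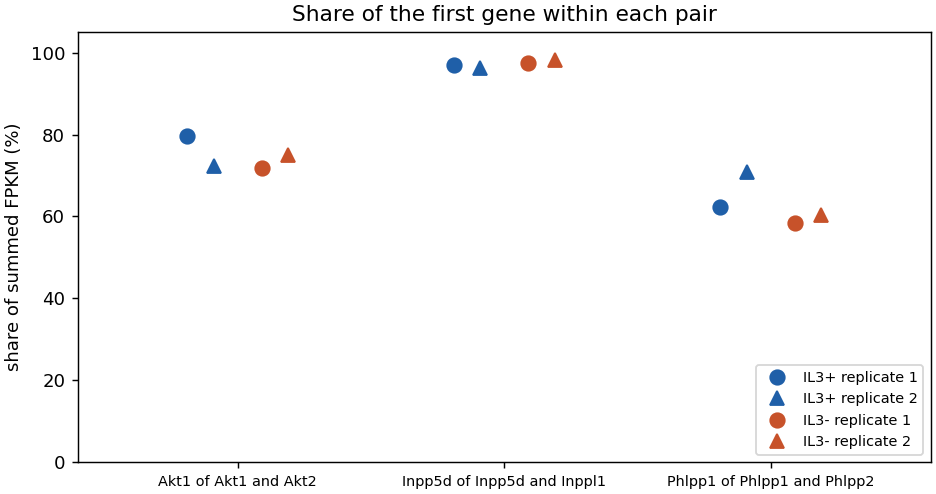
Share in percent of the first gene in the summed FPKM of 3 pairs, 1 symbol per library, with blue for Abl1ko/IL3+, orange for Abl1ko/IL3-, circles for replicate 1 and triangles for replicate 2. The Phlpp1 share is 62.4% and 70.9% in IL3+ and 58.3% and 60.3% in IL3- libraries, while the Akt1 shares of both groups overlap and Inpp5d is at 96.2% or more in every library.

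IL-3 signals through STAT5, and AKT restrains FOXO factors, so the RefSeq promoter windows of the 8 genes (GRCm38.p6, 250 bases before and 50 after each start) were searched on both strands for a STAT motif, TTCNNNGAA, a FOXO motif, GTAAACA, an E-box, CACGTG, and a GC box, GGGCGG. All 8 genes matched, with 16 windows. The STAT motif was in 2 windows, of Akt2 and Pdpk1, and in 8.3% of all 32851 windows, and the match of Pdpk1 lay after the start of a window upstream of the gene as the deposited table places it. The FOXO motif was in 1 window, of Akt1, and in 3.65% of all windows, and the E-box in 0 and in 7.15%. The GC box was in 9 of the 16 windows and in 35.7% of all, and Inpp5d was the only gene of the 8 with none. The bases before the start of Akt2, in 1 of its 4 windows, and of Phlpp1 are shown, ending before the gene as the deposited table places it, because the first holds the STAT motif and the second belongs to the gene with the lowest p-value of the 8. Capitals mark the motifs. A match of letters does not show that a factor binds.
Akt2, chr7:27591302-27591551, plus strand: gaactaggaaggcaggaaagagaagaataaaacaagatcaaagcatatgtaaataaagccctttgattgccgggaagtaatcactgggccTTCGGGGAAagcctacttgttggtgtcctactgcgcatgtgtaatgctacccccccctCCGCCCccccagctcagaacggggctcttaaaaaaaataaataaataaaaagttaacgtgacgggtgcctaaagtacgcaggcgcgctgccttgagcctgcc
Phlpp1, chr1:106171619-106171751, plus strand: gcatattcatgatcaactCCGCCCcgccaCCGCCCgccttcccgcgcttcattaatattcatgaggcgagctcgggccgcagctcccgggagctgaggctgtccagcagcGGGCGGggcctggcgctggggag

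The Phlpp1 stretch was 67.7% G and C with 13 CpG in 133 bases, and that of Akt2 48.8% with 10 in 250 bases. The window of Phlpp1 runs on past the stretch shown, with further GC boxes at -86, -68 and -64. In Akt2 the STAT match began at position -160 from the start, and the GC box at -102.

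The surrounding pathway was read from 9 lists of 155 genes in all, of which 152 were in the table and 148 were tested. Of these, 98 had a fold change below 0 and 50 above, with a median of -0.15 against -0.027 for all genes tested. In edgeR 0 of them had an adjusted p-value under 0.05, 12 had a lower and 1 a higher level at an unadjusted p-value under 0.05 (8.78%, against 5.91% of all genes), and DESeq2 called 5 of the 148, where it called 1.64% of all genes. Both libraries without IL-3 lay below both with it for 43 genes (29.1%, against 17.9% of all genes) and above for 11 (7.43%, against 19.4%). Without Abl1ko/IL3+ replicate 1 the median was 0.06, where that of all genes tested was 0.077.

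Of the 15 inositol lipid kinases other than class I PI3K, 12 had a fold change below 0 (median -0.24). Pip5k1c, which makes the lipid that PI3K phosphorylates, had 5.99 and 14.1 FPKM in IL3+ and 0.583 and 0.802 FPKM in IL3- libraries. Its log2 fold change was -3.92 (standard error 0.64, unadjusted p = 0.00169, edgeR quasi-likelihood adjusted p = 0.632, and adjusted p = 7.15e-07 from DESeq2's Wald test). Pip5k1a, an enzyme of the same kind, had 7.96 and 3.16 FPKM in IL3+ and 1.81 and 2.02 in IL3- libraries. Pik3c2b, a class II PI3K, had 123 and 377 counts in IL3+ and 17 and 4 in IL3- libraries. Levels of all 3 were lower in both libraries without IL-3.

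Of the 10 class I PI3K genes, 5 were below 0 and 5 above (median -0.04), and 0 had an unadjusted p-value under 0.05. The lowest was that of Pik3r6, a regulatory subunit, with 15.6 and 9.2 FPKM in IL3+ and 7.1 and 7.9 in IL3- libraries. The 25 other inositol lipid phosphatases had 16 genes below 0 and 9 above, with a median of -0.13. Inpp5b, a 5-phosphatase, was the only one with an unadjusted p-value under 0.05, at 21.5 and 7.96 FPKM in IL3+ and 4.1 and 5.69 in IL3- libraries (log2 fold change -1.56, edgeR quasi-likelihood adjusted p = 0.782). Without Abl1ko/IL3+ replicate 1 the log2 fold change of Inpp5b was -0.84, and without Abl1ko/IL3+ replicate 2 it was -2.03. Inpp5b overlaps exons of Gm12915 on the other strand.

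Among 17 tested genes of mTORC2, which phosphorylates AKT at its hydrophobic motif, and of other AKT modulators, 10 were below 0 and 7 above (median -0.11). Prr5, an mTORC2 subunit, had 195 and 302 counts in IL3+ and 15 and 0 in IL3- libraries. Cdc37, the kinase-specific partner of HSP90, had 34.4 and 56.5 FPKM in IL3+ and 14.6 and 15.6 in IL3- libraries. Ilk, the integrin-linked kinase, had 37.9 and 55.0 FPKM in IL3+ and 18.5 and 19.9 in IL3- libraries, and its exons overlap Taf10 and Rrp8 on the other strand. All 3 had unadjusted p-values under 0.05 in edgeR, with adjusted p-values of 0.815, 0.727 and 0.737. Of 11 tested subunits of PP2A, another phosphatase of AKT, 8 were below 0 and 3 above (median -0.21), and the lowest p-value, unadjusted p = 0.12 from edgeR, was that of Ppp2r5b.

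Of the 21 tested AKT substrates, 13 were below 0 and 8 above (median -0.11). Creb1, a transcription factor, was the only gene of the 9 lists that was higher at an unadjusted p-value under 0.05. It had 0.307 and 0.514 FPKM in IL3+ and 2.68 and 2.80 in IL3- libraries, with a log2 fold change of 2.67 (standard error 0.48, unadjusted p = 0.00273, edgeR quasi-likelihood adjusted p = 0.692, and adjusted p = 0.000228 from DESeq2's Wald test). With any 1 library left out it stayed between 2.27 and 3.26. Casp9, an apoptotic protease, had 3.28 and 0.848 FPKM in IL3+ and 0.205 and 0.508 in IL3- libraries. Of 16 other tested substrates of PDPK1, 11 were below 0 and 5 above (median -0.29), and Prkch, a protein kinase C gene, had 14.4 and 12.1 FPKM in IL3+ and 6.03 and 8.82 in IL3- libraries.

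Of 21 tested genes whose proteins bind inositol lipids, 16 were below 0 and 5 above (median -0.22). Btk, a kinase that the trisphosphate lipid recruits, had 54.9 and 25.3 FPKM in IL3+ and 12.0 and 17.5 in IL3- libraries, and Cyth3, an exchange factor for ARF proteins, had 68 and 304 counts in IL3+ and 8 and 14 in IL3- libraries. Of 12 partners of SHIP, 7 were below 0 and 5 above (median -0.20), and Dok2, an adaptor, had 45.9 and 67.7 FPKM in IL3+ and 26.0 and 26.5 in IL3- libraries. None of these genes passed edgeR's adjusted threshold. DESeq2 called Pik3c2b, Pip5k1c, Prr5, Creb1 and Cyth3.

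**Figure D5:**
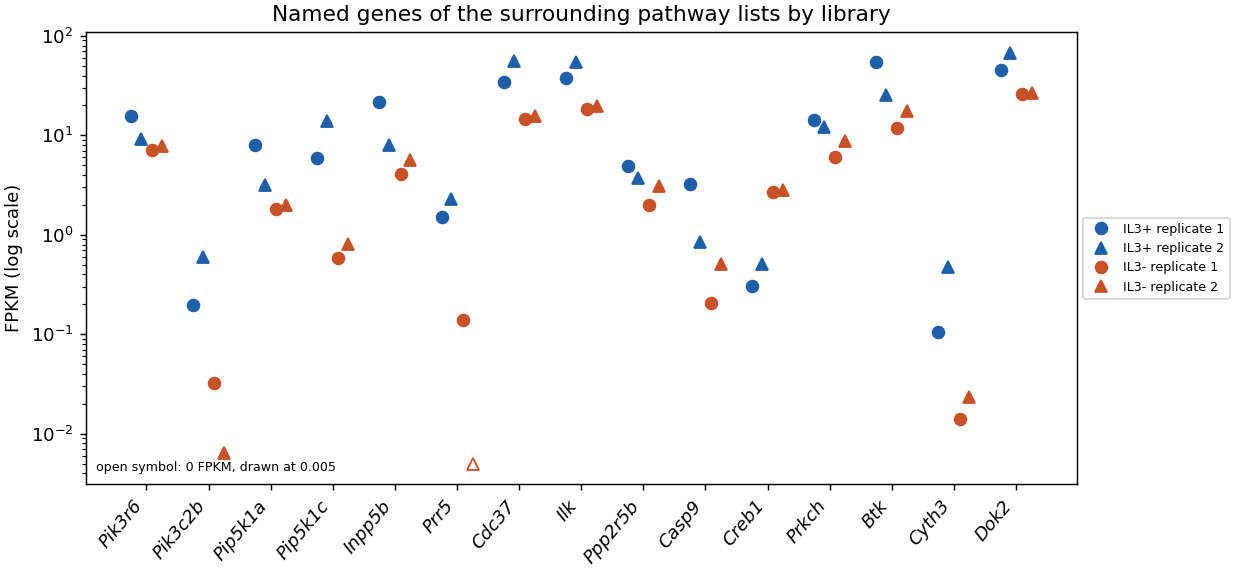
FPKM, on a logarithmic vertical axis, of the 15 named genes of the pathway lists in each library, with blue for Abl1ko/IL3+, orange for Abl1ko/IL3-, circles for replicate 1, triangles for replicate 2 and an open symbol for a value of 0. Both orange symbols lie below both blue ones for each gene but Creb1, where they lie above at 2.68 and 2.80 FPKM. The genes were picked by their p-values in this same comparison, so their separation follows in part from that choice.

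For each of the 8 genes, the pathway gene with the most similar pattern was the one with the smallest root-mean-square distance in centred log2 CPM over the 4 libraries. For Akt1 this was Mtmr9, an inositol lipid phosphatase family gene, at a distance of 0.0228 where the range of Akt1 itself was 0.509, and its own log2 fold change was -0.40. Mtmr3 was nearest to Pdpk1 (0.0369) and Pip4k2a to Inpp5d (0.0574), both highest in Abl1ko/IL3+ replicate 1. Ppp2r1a was nearest to Akt2 (0.0645), Pip4k2c to Phlpp2 (0.0859), Prkch to Phlpp1 (0.17) and Pi4ka to Inppl1 (0.175). For Inpp4a the nearest, Pip4p1, was at 0.508, the largest of these distances, and its log2 fold change was -0.03 where that of Inpp4a was 0.75. A nearest gene always exists among the 148 searched, and distances to all genes were not computed. Whether any of these genes share a regulator was not tested.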

How the data were processed

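RNA-seq was performed by the authors on an Illumina HiSeq after depletion of ribosomal RNA. According to the paper's methods, reads were aligned to GRCm38 with Rsubread and summarized with featureCounts, whereas the submitters' processing notes name STAR, Cuffdiff and mm10. Versions, the strand setting and the tool for FPKM are not given in the sources used here. The authors deposited raw counts per gene and FPKM values, and both deposited tables hold the same counts. For the 8 genes the deposited FPKM equal counts divided by 1 length and the depth, within a ratio of 1.02 between libraries.

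Samples were grouped by their titles. Counts were filtered with filterByExpr (16535 of 23756 genes kept), normalized with TMM and tested across all genes with edgeR 4.0.16 (quasi-likelihood F test, two-sided, Benjamini-Hochberg adjustment, threshold 0.05) in R 4.3.3. Standard errors were derived from the fold change and the F statistic, and 95% intervals from the t distribution. Alternatives used DESeq2 1.42.0, limma 3.58.1 on log2(FPKM + 1) and log2(FPKM + 0.1), other scalings and filters, the replicate block and leaving out each library. p-values measure only the spread between these libraries. At these depths 3 counts are 0.0497 to 0.0613 CPM, and intervals on counts cover counting error only. The fits were run on simulated counts whose spread between replicates was fixed, not estimated from these libraries. That run does not show how many true changes would be missed here.

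The genes and lists were chosen with earlier results of these data known. Named genes were the 8 genes, and in each list those with an unadjusted p-value under 0.05 or, with none, the lowest one. Proteins were not analysed here. Mtmr9 and the other nearest genes were searched in the pathway lists, with a prior count of 2.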

Additional observations from a re-analysis of the deposited data

How the results depend on the processing

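The number of the 8 genes past the adjusted threshold was 0 in all 13 alternatives run. Over all genes the number was 0 in edgeR, 271 with DESeq2's Wald test, and 0 to 22 with 1 library left out, where the lone library of a group is assumed to vary like the other group (22 without Abl1ko/IL3- replicate 1). The cause was not tested. With the replicate block it was 0, with 548 genes below 0.05 before adjustment against 978 without the block, and 0 of the 8 genes passed. Deviations of same-numbered libraries had a correlation of -0.194 across genes. Crossing the pairs, a choice made after seeing the data, gave 0 genes, with 1136 unadjusted.

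The median log2 fold change of the 8 genes, -0.37, was -0.23 with limma on log2(FPKM + 1), where the pseudocount shrinks low genes, and ran from -0.52 to -0.27 with 1 library left out. That of the pathway lists ran from -0.41 to 0.06, where the medians of all genes tested were 0.039 and 0.077. With 1 library left out, log2 fold changes ran from -0.36 to 0.05 for Akt2, from -0.73 to 0.13 for Pdpk1 and from -0.48 to 0.14 for Inpp5d, and the difference in the Akt1 share from -6.12 to 1.09 percentage points. The other 5 genes kept their sign in all 13 alternatives. Depth limits Inpp4a most, with 54 to 197 counts.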
